A study of Mus musculus with 6 samples.

Results

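The transcripts described here were weakly expressed in wild-type mouse embryonic stem cells and at least 4-fold more abundant in cells without G9a. They number 286 of the 55419 UCSC transcript identifiers in the table. Each had 4 or more reads over the 3 wild-type libraries, a mean under 2 CPM in wild type and at least 1 CPM in knockout, a ratio of mean levels of 4 or more, and no overlap between the genotypes. CPM is the read count of a transcript per 1000000 counts of its library. The rule also leaves out 4 long stretches of consecutive table rows that shift together as a whole. These transcripts were selected on their measured counts in all 6 libraries, so their levels and ratios are a description and not a test of the effect of G9a.

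The cells are TT2 embryonic stem cells, whose parents were a C57BL/6 female and a CBA male, kept in serum medium with the cytokine LIF. There were 3 poly-A RNA-seq libraries from wild-type TT2 cells and 3 from TT2 G9a-/- cells, and no other treatment or genotype entered the comparison. Both genotypes are of 1 stem cell line. The sources used here do not give the number of knockout clones, and nothing says that the libraries came from separate cultures, so the spread between them may be technical. The library totals ran from 5738463 to 9717847 counts, with wild-type replicate 2 and knockout replicate 3 the shallowest of their genotypes. A single read was worth 0.103 CPM in wild-type replicate 1, 0.154 CPM in replicate 2 and 0.104 CPM in replicate 3.

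G9a, encoded by Ehmt2, works as a complex with its relative GLP and methylates histone H3 at lysine 9. Dimethylation at this site is found mainly in silent chromatin, and in embryonic stem cells G9a is known for keeping germline genes and some endogenous retroviral elements silent. The series title links these enzymes to silencing by Polycomb repressive complex 2, which marks another lysine of histone H3. No gene name stands beside the identifiers in the files, and 0 of the 55419 identifiers were matched to the reference tables used here. The transcripts are therefore described by level, behaviour and place in the table, and Ehmt2 itself and stem cell markers were not analysed here. Several identifiers can belong to 1 gene and share its reads, so 286 identifiers need not be 286 genes.

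In wild type these transcripts sat close to the limit of detection. Their mean wild-type level ran from 0.137 to 1.97 CPM with a median of 0.414 CPM (interquartile range 0.246 to 0.842). That corresponds to 4 to 52 reads over the 3 wild-type libraries, with a median of 11 reads. In knockout their mean level ran from 1.002 to 113 CPM with a median of 3.37 CPM (1.87 to 6.70), or 23 to 2698 reads with a median of 79. Even so, most remained modest transcripts in the knockout. Only 58 of the 286 were above 8.61 CPM there, the median of all 12713 transcripts tested across the table.

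The ranks of these transcripts among all those detected differ between the genotypes, as the rule requires. Its knockout floor of 1 CPM lies above the median knockout level of detected identifiers, 0.752 CPM. Among the 28110 identifiers with a read in any library, the median member stood at percentile 43.0 of wild-type levels and at percentile 69.3 of knockout levels. Members spanned percentiles 27.7 to 63.9 in wild type and 54.3 to 93.2 in knockout.

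Every library of a genotype gave a similar picture. The median level of the 286 transcripts was 0.412, 0.386 and 0.418 CPM in wild-type replicates 1, 2 and 3, and 3.30, 3.27 and 3.66 CPM in knockout replicates 1, 2 and 3. Added together, they took 173, 161 and 176 CPM of the wild-type libraries and 1735, 1773 and 1812 CPM of the knockout libraries. Wild type summed to 169.9 ± 8.07 CPM and knockout to 1773 ± 38.3 CPM (SD, n = 3 each), a 10.4-fold difference in summed level. The groups of libraries are far apart on this scale, and none stands out within its genotype. Fewer cells with such a transcript and less RNA per cell cannot be told apart in these bulk libraries.

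**Figure D1:**
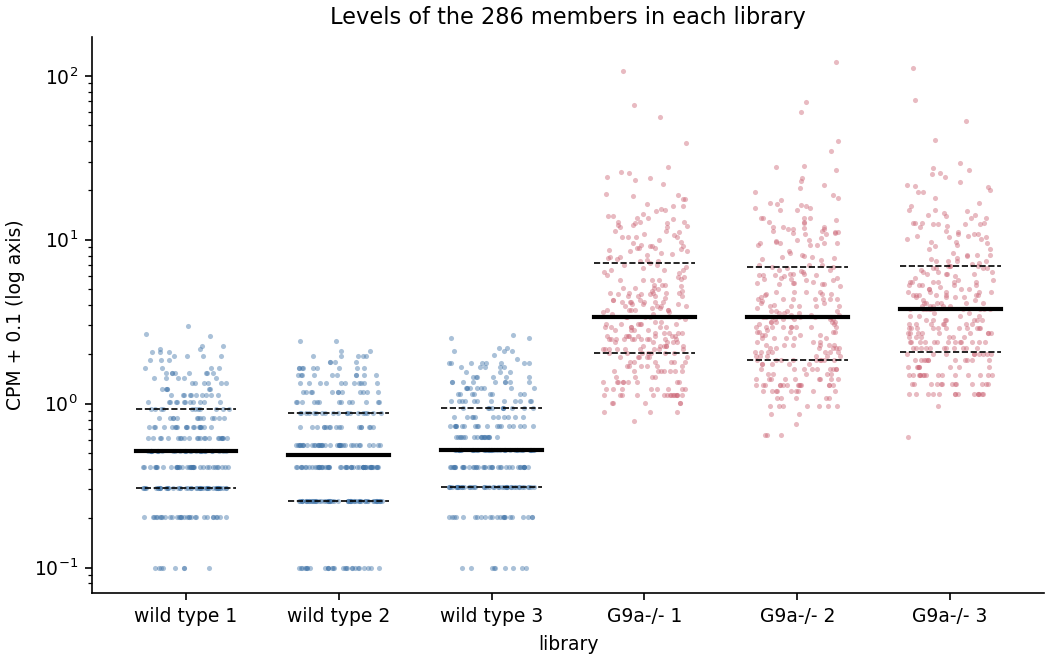
CPM plus 0.1 of each of the 286 transcripts (points) in each library, on a log axis; thick lines are medians and dashed lines quartiles. Blue wild-type libraries have medians of 0.386 to 0.418 CPM and red G9a-/- libraries medians of 3.27 to 3.66 CPM, before the 0.1 is added; points on the lowest line of the wild-type libraries had no read.

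The summed level did not rest on a few abundant members, although they are unequal. The most abundant supplied 6.40% of the summed knockout level, the top 2 supplied 10.3% and the top 10 supplied 24.5%. Without the top 2, wild type summed to 169.1 CPM and knockout to 1591 CPM, a 9.41-fold difference.

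By knockout level, 80 of the 286 reached 1 to 2 CPM, 108 reached 2 to 5 CPM, 51 reached 5 to 10 CPM, 34 reached 10 to 20 CPM and 13 reached 20 CPM or more. The size of the difference was spread as unevenly. It was 4- to 5-fold for 62 transcripts, 5- to 8-fold for 101, 8- to 16-fold for 89, 16- to 32-fold for 20 and 32-fold or more for 14. The median ratio was 7.21 (interquartile range 5.22 to 10.8), and the highest was 227. The 14 at the top of this range had wild-type levels of 0.137 to 1.43 CPM and knockout levels of 4.45 to 113 CPM, and 8 of them lay within 5 table rows of another member.

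Wild-type and knockout level went together among the members. Spearman's rho between them was 0.73 across the 286 transcripts, which share all 6 libraries and are held above a 4-fold line by the rule. Of the transcripts under 0.25 CPM in wild type, 72 in number, the median knockout level was 1.58 CPM, and of the 58 at 1 to 2 CPM in wild type it was 10.2 CPM. The rho between ratio and wild-type level was -0.17. The median ratio was 8.41 under 0.25 CPM, 6.90 at 0.25 to 0.5 CPM, 6.31 at 0.5 to 1 CPM and 7.52 at 1 to 2 CPM. The floor of 1 CPM in knockout holds the ratio above 4 for the weakest wild-type levels, so the value of the lowest range is partly set by the rule.

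**Figure D2:**
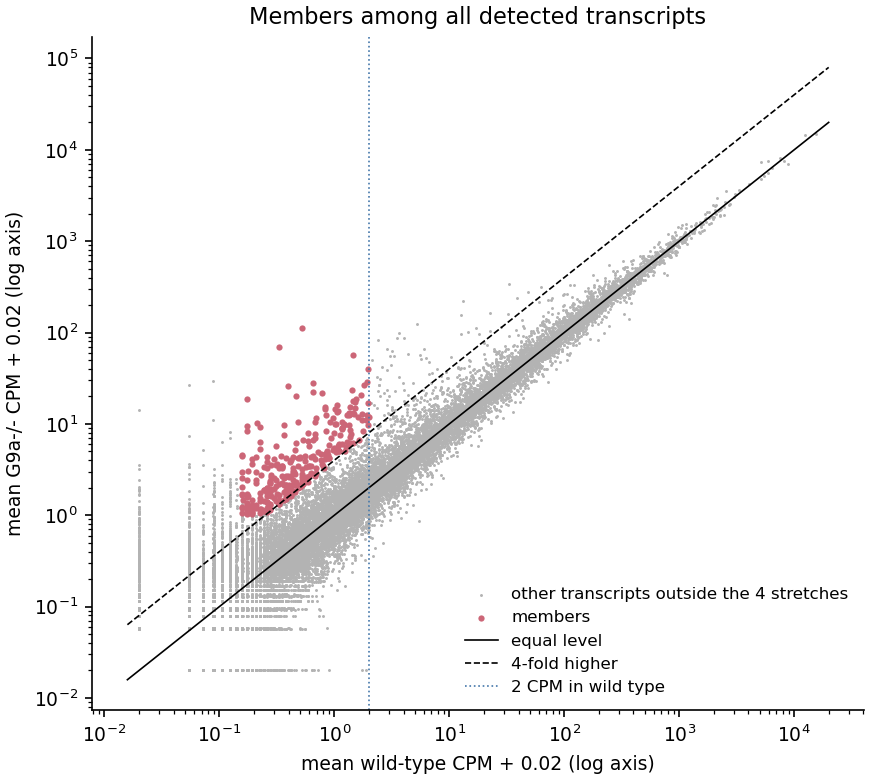
Mean wild-type CPM (x) against mean G9a-/- CPM (y), each plus 0.02 and on log axes, for all detected transcripts outside the 4 stretches (grey) and the 286 members (red). The members fill the corner left of 2 CPM in wild type and above the dashed 4-fold line, reaching 113 CPM, while most transcripts follow the line of equal level.

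Members are a small part of the transcripts that are weak in wild type. Outside the stretches, 8914 identifiers had 4 or more wild-type reads and a wild-type mean under 2 CPM. Their median log2 ratio of knockout to wild type was -0.02, leaving out 145 with no knockout read. Of the 8914, 2452 reached 1 CPM in knockout, and of those 617 were lower in knockout, 1167 were up to 2-fold higher, 381 were 2- to 4-fold higher and 287 were 4-fold higher or more. The genotypes overlapped for only 1 of these 287, which left the 286 members, 3.21% of the 8914. In the same 8914, every knockout library exceeded every wild-type library for 1202, or 13.5%.

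The opposite pattern was rare outside the 4 stretches. Transcripts with 4 or more knockout reads, a knockout mean under 2 CPM, a wild-type mean of 1 CPM or more, a wild-type level at least 4-fold higher and no overlap numbered 19, out of 9045 that were weak in knockout. Their median wild-type level was 1.46 CPM and the highest was 5.40 CPM, and their largest difference was 8.17-fold. Strong differences among weak transcripts outside the stretches thus lay on the side of the knockout in 286 cases and on the side of wild type in 19. Stretches lower in knockout are among those left out, so this balance holds only outside them. With the stretches kept in, the rule for the members selected 315 transcripts, and the opposite pattern was not counted there.

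The edges of the group were not sharp. The members nearest the 4-fold line had ratios of 4.06, 4.06 and 4.09, and the nearest transcripts that missed it had ratios of 3.97, 3.96 and 3.95. Between 3- and 4-fold lay 115 transcripts that met every other condition. The highest wild-type mean among members was 1.97 CPM, and the next transcript above the ceiling that rose in the same way had 2.07 CPM. The lowest knockout mean was 1.002 CPM inside and 0.992 CPM for the nearest of 54 transcripts kept out by that floor alone. At the limit on reads, 28 members had exactly 4 wild-type reads, and 31 transcripts with 3 reads met the rest of the rule. The stretches kept out 29 that met every other condition.

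Few wild-type reads make many of the single ratios imprecise. A ratio of pooled reads per library total was given a 95% exact (Clopper-Pearson) counting interval, which covers counting error only. The upper bound of this interval was a median of 4.16 times its lower bound. The interval lay wholly above 4-fold for 124 transcripts and included 4-fold for 162, while its lower bound was above 2-fold for 269 and above 8-fold for 42. The lowest lower bound was 1.71-fold. Precision followed the wild-type reads. For the 128 members with 4 to 9 reads the bounds were a median of 6.73 times apart, for the 75 with 10 to 19 reads 3.62 times, and for the 83 with 20 or more reads 2.25 times.

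**Figure D3:**
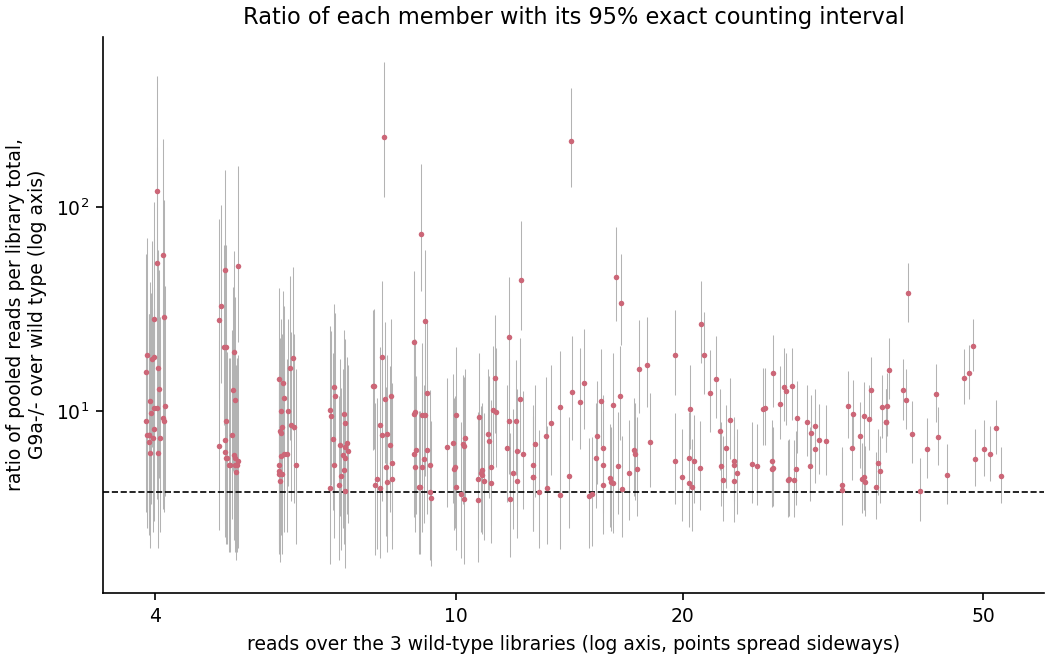
Ratio of pooled reads per library total, G9a-/- over wild type (y, log axis), against the reads over the 3 wild-type libraries (x, log axis, spread sideways), for the 286 members; bars are 95% exact counting intervals and the dashed line is 4-fold. Intervals are widest at 4 to 9 reads, and 124 of them lie wholly above the line.

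In 41 members at least 1 wild-type library had no read, and in 4 of these only 1 wild-type library had any. Of the 41, 28 lacked a read in wild-type replicate 2, the shallowest wild-type library. The rule lets no member lack reads in a knockout library, and the lowest count there was 6, 5 and 3 reads in replicates 1, 2 and 3. The gap between the genotypes was usually wide. The lowest knockout library was a median of 4.06 times the highest wild-type library, at least 2 times for 264 members and under 1.5 times for 2.

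The fit across all transcripts gives the same contrast with its replicate error. Its filter on low counts kept 236 of the 286, and the other 50 had at most 1.79 CPM in knockout (median 1.24). All 236 were called higher in knockout (edgeR quasi-likelihood, adjusted by Benjamini-Hochberg, threshold 0.05), where 21.6% of all tested transcripts were. The 4-fold difference that the rule asks of every member was reached by 3.11% of all tested transcripts. The rule used this contrast, so these counts restate the choice of members. The fitted log2 fold changes of the 236 ran from 1.87 to 7.74, with a median of 2.93 and standard errors of 0.15 to 0.68. DESeq2 with its own filter called 264 of the 286 higher, where it called 12.1% of the transcripts with an adjusted p. The authors' deposited table has 282 of the 286 higher at the same threshold, where 14.3% of the identifiers with an adjusted p are. For the members the log2 fold change in the authors' deposited table ran from 1.25 to 6.90 with a median of 2.16, smaller than the median log2 ratio of CPM, 2.85. A single member misses the threshold in the authors' deposited table, with an adjusted p of 0.0542, and 3 have no p-value there.

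The 3 members without a p-value in the authors' deposited table are singled out after their values were seen. The first had 2.88, 0.772 and 0.627 CPM in wild-type replicates 1, 2 and 3, and 56.0, 60.4 and 53.2 CPM in knockout. Wild-type replicate 1 was high among the wild-type libraries, yet far below every knockout library. The ratio was 39.6, and 80.8 without that library. The next had 0.720, 1.39 and 2.40 CPM in wild type and 17.6, 15.2 and 19.3 CPM in knockout, with every knockout library well above every wild-type one. The last had 0.309, 0.154 and 0 CPM in wild type and 4.20, 1.64 and 1.39 CPM in knockout. Here knockout replicate 1 was the highest by far. The ratio was 15.6, and it was 9.81 without that library, 31.2 without wild-type replicate 1 and 10.4 without wild-type replicate 3.

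A library that takes no part in the selection shows how far the choice itself shapes the levels. The rule was applied again with 1 library left out, and the level of the selected transcripts was then read in that library. Without knockout replicate 1, 2 and 3 it selected 298, 312 and 290 transcripts. In the left-out knockout library 291, 306 and 288 of them lay above every wild-type library. Among the 8914 transcripts weak in wild type, 13.5% had every knockout library above every wild-type library. That is a stricter condition than a single library above them. The matching share for a single knockout library over all transcripts was not counted, so nothing is concluded from these counts. The median ratio of the left-out knockout library to the wild-type mean was 6.59, 6.34 and 7.49, against 7.13, 7.08 and 7.01 for the knockout libraries used. At least 4-fold in the left-out library were 246, 242 and 247 transcripts, or 82.6%, 77.6% and 85.2%. The wild-type mean in these ratios comes from libraries that the rule used, so only the knockout side was left out of the choice. So the level in an unused knockout library was close to that in the used ones, lower in replicates 1 and 2 and higher in replicate 3.

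Leaving out a wild-type library moved the levels more. Without wild-type replicate 1, 2 and 3 the rule selected 244, 260 and 244 transcripts, and 241, 256 and 240 of them lay below every knockout library in the library left out. All knockout libraries entered the rule, so a place below them is partly set by the choice. Here too the share for a single library over all transcripts was not counted, and nothing is concluded from these counts. The knockout mean, from libraries that the rule used, was at least 4-fold above the left-out wild-type library for 184, 210 and 177 transcripts, or 75.4%, 80.8% and 72.5%. The median level of the selected transcripts in that library was 0.617, 0.463 and 0.627 CPM, against 0.469, 0.467 and 0.502 CPM in the wild-type libraries used. Summed over the transcripts, the left-out wild-type library held 191, 178 and 193 CPM against 168, 166 and 164 CPM in those used. The wild-type level in an unused library was thus above that in the libraries used for the choice, in each of the 3 sums and in the medians of replicates 1 and 3 but not of replicate 2. The left-out libraries are of the same cells as the others, and the libraries they were set against all entered the rule. Their levels thus describe these libraries only and say nothing about other clones.

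**Figure D4:**
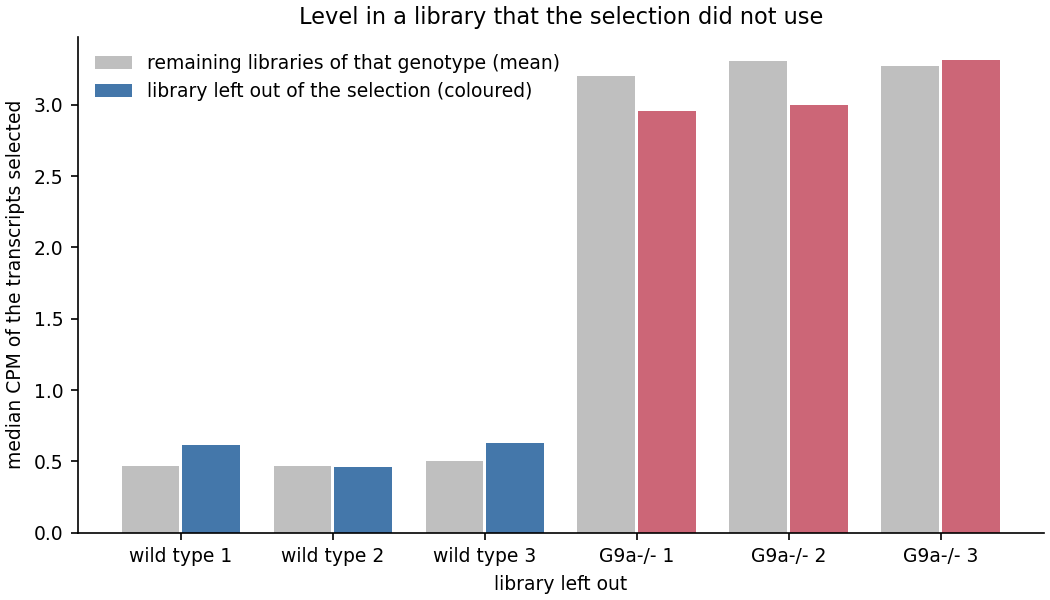
Median CPM of the transcripts selected without the library named on the x axis, in the remaining libraries of its genotype (grey) and in the left-out library (blue for wild type, red for G9a-/-). Left-out wild-type replicates 1 and 3 reach 0.617 and 0.627 CPM against 0.469 and 0.502 CPM in the libraries used, and all left-out G9a-/- libraries stay between 2.95 and 3.31 CPM.

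The levels of single members varied between libraries by little more than counting noise. The spread was measured as chi-square per degree of freedom, which is 1 when libraries differ by counting noise alone. It was 1.25 over the knockout libraries and 1.07 over the wild-type libraries for the 286 transcripts. At 10 CPM or more in knockout it was 1.33 for 47 members, against 2.60 for 3654 other tested transcripts of up to 120 CPM. Levels were not matched within this range, where 34 of the 47 members lay at 10 to 20 CPM, and this measure can rise with the number of reads. At 5 to 10 CPM it was 1.19 for 51 members against 1.73 for 1282 others, at 2 to 5 CPM 1.35 for 108 against 1.52 for 2269, and at 1 to 2 CPM 1.09 for 80 against 1.35 for 1754. The others had all passed the low-count filter of the fit, but only 30 of the 80 members at 1 to 2 CPM had. Levels were matched within none of the ranges. By chi-square per degree of freedom the members had the lower value in all 4 ranges. The median coefficient of variation did not show this in every range: it was 7.89% for members and 7.09% for others at 10 CPM or more, 13.5% and 14.4% at 5 to 10 CPM, 19.5% and 19.8% at 2 to 5 CPM, and 27.5% for both at 1 to 2 CPM. Transcripts with the same rise from fewer than 4 wild-type reads had 1.24 both at 10 CPM or more, for 4 transcripts, and at 1 to 2 CPM, for 77. At 2 to 5 CPM they had 1.74, for 28 transcripts, and at 5 to 10 CPM 2.15, for 5, above members and others alike. A value below that of the others was thus shared with this group in some ranges only. The rule asks for genotypes that do not overlap, which can limit the spread of members and not of the others. That condition removed only 1 of 287 transcripts, and the difference in spread was not tested. Over all 286 members the coefficient of variation in knockout had a median of 16.5% and reached 66.1%.

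The largest share of members had their highest level in the shallow knockout replicate 3. It was the highest knockout library for 120 members, replicate 2 for 89 and replicate 1 for 77. Replicate 3 was also the lowest for 78, replicate 2 for 105 and replicate 1 for 103. How often each library was the highest over all transcripts was not counted, so the order may not be particular to members. The part of sequencing depth in this order was not tested.

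The same rise was also seen from higher and lower wild-type levels. Among 70 that were at 2 CPM or more in wild type, the median ratio was 7.21, the same as for the 286 to 3 digits, and the highest was 34.4. At 16-fold or more were 34 of the 286 members and 12 of the 70. The 70 had a chi-square per degree of freedom of 2.70 in knockout at a median level of 37.3 CPM. A further 114 had fewer than 4 wild-type reads and a median knockout level of 1.61 CPM, below the 3.37 CPM of the members. Their ratios were higher, with a median of 21.5 and 68 at 16-fold or more among the 94 with a wild-type read, but rest on 1 to 3 wild-type reads each. At so few wild-type reads the floor of 1 CPM in knockout forces a high ratio, so these values are partly set by the rule. These groups were cut by level, so the contrasts describe them and were not tested.

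uc009url.1 had the highest knockout level of all members. It had 8, 1 and 5 reads in wild-type replicates 1, 2 and 3, or 0.823, 0.154 and 0.522 CPM, and 946, 1112 and 640 reads in knockout replicates 1, 2 and 3, or 107, 121 and 112 CPM. All knockout libraries were close together and far above each wild-type one. Wild type averaged 0.50 ± 0.335 CPM and knockout 113 ± 7.07 CPM (SD, n = 3 each), a ratio of 227. The ratio of pooled reads was 209 with a 95% exact counting interval of 125 to 384. The fitted log2 fold change was 7.68 with a standard error of 0.17, and the authors' deposited table lists 6.90.

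The identifiers around uc009url.1 changed with it. The member 2 rows below had 8 wild-type and 1628 knockout reads, and 69.0 ± 2.82 CPM in knockout (SD, n = 3). Between and just above them lie 3 identifiers that had too few wild-type reads to be members, with 0 to 2 wild-type reads each and 26.6, 29.5 and 14.1 CPM in knockout. The next 3 rows above and 3 rows below held 0 to 2 reads over all libraries. This run of 5 adjacent identifiers is thus flanked by rows with almost no reads. The sources used here do not say whether they belong to 1 gene or share reads.

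uc009pey.2 had the largest ratio among the other members with at least 10 wild-type reads. It had 0.617, 0.309 and 0.418 CPM in wild-type replicates 1, 2 and 3, from 6, 2 and 4 reads, and 18.7, 22.7 and 19.3 CPM in knockout, from 165, 208 and 111 reads. The knockout libraries lay within a narrow range, far from every wild-type library. Wild type averaged 0.448 ± 0.157 CPM and knockout 20.3 ± 2.12 CPM (SD, n = 3 each), a ratio of 45.2. Pooled reads gave a ratio of 43.8 with a 95% exact counting interval of 24.9 to 85.4. The fitted log2 fold change was 5.42 with a standard error of 0.24, and the authors' deposited table lists 4.71.

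This transcript also had high neighbours in the knockout, but among expressed rows. The row above, another member, went from 0.379 CPM to 25.9 ± 1.82 CPM (SD, n = 3). The row below went from 3.62 CPM to 32.7 ± 3.12 CPM. The row 2 below went from 162 to 199 CPM, a ratio of 1.23, and the row 4 above from 62.6 to 78.3 CPM, a ratio of 1.25. The rows 2, 3 and 5 above had ratios of 1.66, 0.976 and 0.584, and the rows 3 and 4 below 0.736 and 1.38. Of the 11 rows examined, 3 adjacent ones exceeded 4-fold, and the last row held a single read.

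**Figure D5:**
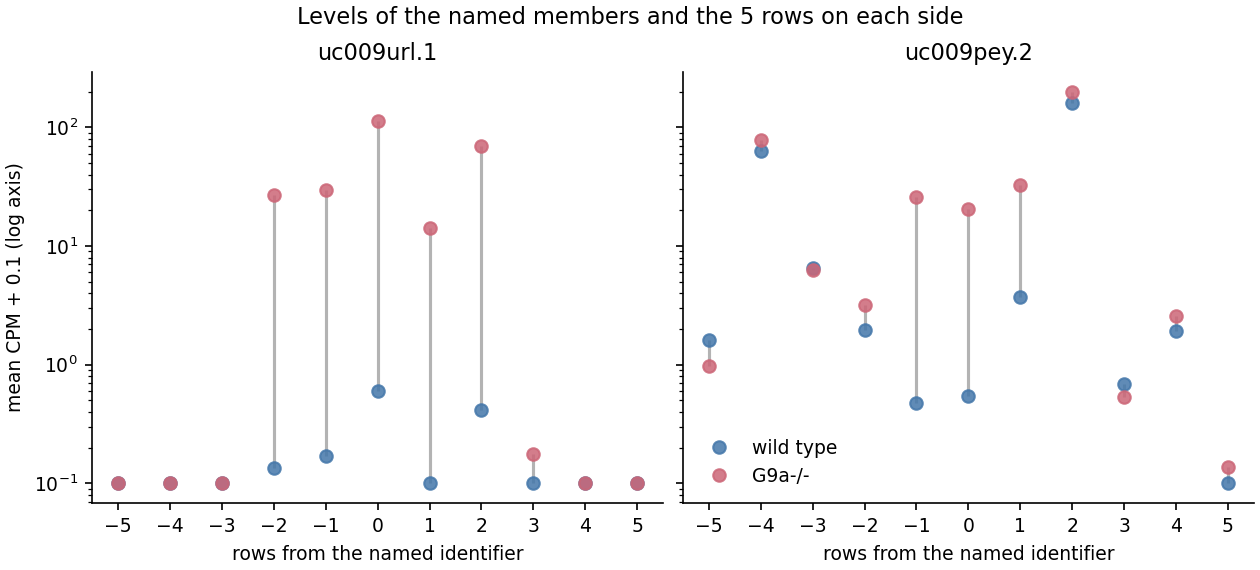
Mean CPM plus 0.1 (log axis) in wild type (blue) and G9a-/- (red) for uc009url.1, uc009pey.2 and the 5 table rows on each side of each. Around uc009url.1 a block of 5 rows is high in G9a-/- among rows with almost no reads, and around uc009pey.2 a block of 3 rows is high among rows with ratios of 0.584 to 1.66 and a last row with a single read.

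Most members stood alone in the table, and a minority came in small groups. With rows no more than 5 apart counted together, 223 members were single, 50 formed 25 pairs, 9 formed 3 groups of 3 and 4 formed 1 group of 4. In the group of 4, the identifiers were adjacent and the ratios were alike, at 9.66, 12.3, 9.00 and 9.65, while knockout levels ran from 4.33 to 20.8 CPM. In a group of 3 the ratios were 44.3, 4.06 and 121.6, with knockout levels of 28.3, 1.61 and 18.8 CPM, so neighbours did not always change alike. Among 11 directly adjacent pairs of members, the ratios were within 2-fold of each other in 8. The same share for pairs of members that are not adjacent was not counted. Counting also the transcripts with the same rise from fewer than 4 reads or from 2 CPM or more, 96 members had another such transcript within 5 rows and 190 had none.

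Identifiers listed beside members held a larger share of higher calls than the table outside the stretches, a difference that was not tested. Of 540 identifiers directly next to a member that were not members themselves, 234 had no read in any library and 105 were tested. Of these 105, 45 were called higher (42.9%) and 7 lower (6.67%), by the edgeR test. Within 5 rows, 185 of 528 tested were called higher (35.0%) and 51 lower (9.66%). Outside the stretches, 21.6% of the 10811 non-members tested were called higher and 14.3% lower. The median log2 fold change was 0.21 next to a member, 0.15 within 5 rows and 0.02 among all these non-members. Reads shared between transcripts of 1 gene can enter these neighbour counts, and their part was not tested.

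Members were found along the whole table. With its rows divided into 10 equal blocks, they made up 2.66% to 4.43% of the transcripts with the same wild-type reads and ceiling. The lowest share was in block 2, with 28 of 1053, and the highest in block 9, with 39 of 880. Blocks 1 to 5 each held 2.66% to 2.91%, and blocks 6 to 10 each held 3.23% to 4.43%. The stretches left out of the choice remove rows unequally from these blocks, and the shares were not compared by a test.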

How the data were processed

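The deposited table holds raw read counts per UCSC transcript identifier for 6 poly-A RNA-seq libraries of mouse embryonic stem cells, made by the authors. Per the submitters' processing notes, Bowtie 0.12.7, DESeq2 and R 2.12.1 were among the tools and mm9 was the build. For the read counter, the strand setting and reads with several alignments, the sources used here give nothing. The authors' deposited log2 fold changes and deposited p-values were used only where named. Groups and replicate numbers came from sample titles.

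Members were selected on CPM relative to raw column sums, with no pseudocount. All transcripts were fitted with edgeR 4.0.16 in R 4.3.3 (filterByExpr, TMM, glmQLFit, glmQLFTest, no covariate, Benjamini-Hochberg). The fit was also run on simulated counts with planted changes and a single dispersion for all transcripts. That run does not cover weak transcripts in particular, and nothing is concluded from it here. Alternatives were DESeq2 1.42.0, other scalings, filters and rule thresholds, the replicate number as a block, and each library left out. Intervals used SciPy 1.17.1. Members and lists were chosen with earlier results of these data known. With no gene names, at most 2 identifiers are named: the member highest in knockout, and the largest ratio among the others with at least 10 wild-type reads. Gene lists were not counted and sequences not printed.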

Additional observations from a re-analysis of the deposited data

How the results depend on the processing

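The 286 selected transcripts became 123 at 8-fold and 158 with 10 or more wild-type reads, both fewer by construction, and 228 to 401 under the other planned thresholds and scalings. With a library left out the rule selected 244 to 312, of which 203 to 274 were members. The median log2 ratio of 2.85 fell to 1.90 with a pseudocount of 0.5 CPM, which is near the wild-type level of these transcripts, and ran from 2.80 to 2.95 with a library left out. The 236 members called higher became 236 to 286 under other tests, scalings and filters, and 248 to 273 with a library left out, where the low-count filter keeps more of them. In the 12 alternatives no member was called lower. Over all transcripts 2146 to 2974 were called higher, and upper-quartile scaling turned the balance from 2744 higher and 2336 lower to 2411 higher and 2774 lower. With the replicate number as a block, 236 members and 2917 transcripts were called higher. The numbers were not read as pairs, as the deviations of same-numbered libraries correlated by 0.066, 0.088 and 0.025, not above 0.1, although each of the 6 libraries correlated best with its own number. Both named transcripts kept their call in all 12 alternatives. At this depth, 162 of the 286 counting intervals include 4-fold, so a member and a transcript just outside the rule often cannot be told apart.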
